A study of Homo sapiens with 20 samples.

Results

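The cytosolic ribosomal protein genes were examined in a chromatin immunoprecipitation sequencing study of HCT116 cells, a human line established from a colorectal carcinoma. The cells were wild type (WT) or lacked the histone methyltransferase MLL4 (knockout, KO). The genes were the RefSeq protein-coding genes on chromosomes 1 to 22 whose symbol is RPL or RPS with a number and at most the letters A, X or L, together with RPLP0, RPLP1, RPLP2 and RPSA. The rule found 81 genes among 19126 autosomal protein-coding genes. They were 40 RPL genes of the large subunit, 30 genes of the small subunit including RPSA, the 3 genes of the acidic stalk, and 8 paralogs, which are close copies of a ribosomal protein gene that carry L in their symbol. The series holds 20 libraries, of which 18 have peak lists and 2 are inputs. H3K4me3, H3K27ac and p53 have 2 libraries per genotype, while H3K4me1, MLL1 and MLL4 have 1 library per genotype. No treatment is named for any group. The sources used here do not say whether the KO line is 1 clone or whether replicates are separate cultures.

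The cytosolic ribosome translates nearly all mRNAs of the cell, and its proteins are made in equal amounts from genes that every growing cell transcribes strongly. Many of these genes are short, host small nucleolar RNA genes in their introns, and start transcription with C followed by a run of pyrimidines, the terminal oligopyrimidine (TOP) motif that couples their translation to mTOR signalling. H3K4me3 marks active promoters, H3K27ac marks active promoters and enhancers, and H3K4me1 is typical of enhancers and promoter flanks. MLL4, encoded by KMT2D, is chiefly an H3K4 monomethyltransferase of enhancers, and MLL1, encoded by KMT2A, is a related enzyme found at many CpG-rich promoters. Several ribosomal proteins, RPL5 and RPL11 among them, bind MDM2 when ribosome assembly is disturbed and so stabilise p53.

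Start regions of genes that the results turn on are printed below to show the bases around the first transcribed base, where the TOP motif lies, with 2 paralogs among them. Each sequence runs 5′ to 3′ on the gene's strand from 60 bases before the first transcribed base to 10 bases into the transcript, from RefSeq on GRCh38.p14. Capitals mark the longest run of C and T near the start.
RPL13: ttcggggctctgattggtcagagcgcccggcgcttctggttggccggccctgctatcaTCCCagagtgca
RPL38: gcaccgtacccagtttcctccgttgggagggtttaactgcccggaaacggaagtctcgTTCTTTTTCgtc
RPL3: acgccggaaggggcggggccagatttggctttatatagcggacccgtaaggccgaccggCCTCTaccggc
RPL29: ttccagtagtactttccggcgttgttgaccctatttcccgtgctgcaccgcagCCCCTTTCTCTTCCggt
RPS6: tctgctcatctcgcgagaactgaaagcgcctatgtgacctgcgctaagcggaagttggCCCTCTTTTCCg
RPS12: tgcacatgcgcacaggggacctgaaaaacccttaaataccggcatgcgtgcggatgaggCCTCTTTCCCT
RPS19: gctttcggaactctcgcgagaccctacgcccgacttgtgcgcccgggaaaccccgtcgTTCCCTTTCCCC
RPLP0: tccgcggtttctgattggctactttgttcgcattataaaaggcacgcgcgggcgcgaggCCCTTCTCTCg
RPS27L: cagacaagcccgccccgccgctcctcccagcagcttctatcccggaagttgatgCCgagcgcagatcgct
RPL10L: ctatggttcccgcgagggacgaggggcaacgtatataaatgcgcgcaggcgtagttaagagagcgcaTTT
These lie at chr16:89560597-89560666 (+) for RPL13, chr17:74203618-74203687 (+) for RPL38, chr22:39319614-39319683 (-) for RPL3 and chr3:51995886-51995955 (-) for RPL29. RPS6 is at chr9:19380227-19380296 (-), RPS12 at chr6:132814509-132814578 (+), RPS19 at chr19:41860195-41860264 (+) and RPLP0 at chr12:120201102-120201171 (-). The paralogs RPS27L and RPL10L are at chr15:63157468-63157537 (-) and chr14:46651772-46651841 (-).

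A start was listed in the promoter table for 64 of the 81 genes and for 15101 of the coding genes. The first transcribed base was C in 46 of the 64 (71.9%), against 11.3% of all coding genes. A run of 5 or more pyrimidines between 10 bases before and 15 bases after the start was found in 56 (87.5%, against 42.6%). In that window on the gene's strand, CTTTC was present in 26 (40.6%, against 3.47%) and TTTCC, which can overlap it, in 23 (35.9%, against 4.52%). On either strand of the 300-base promoter, CCGGAAG, the core letters bound by ETS factors, was found in 22 (34.4%, against 14.3%). GGGCGG, the GC box, was found in 34 (53.1%, against 58.7%). The printed runs were read only within 10 bases of the start. They range from 4 bases in RPL13 to 14 in RPL29 among the core genes, and are 2 and 3 bases in the paralogs RPS27L and RPL10L. Those of RPS12, RPS19 and RPL10L reach the last printed base, so they may be longer. The genes were also short, with a median length of 5015 bp (772 to 27723) against 24476.5 bp for all coding genes, and 27 of them contained 58 small nucleolar RNA genes.

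The deposited lists were used as they stand. A gene was scored as carrying a target where a peak overlapped its body or 1 kb to either side, and its value was the fold enrichment over input that the authors' peak caller gave for the highest such peak. That peak was not always the same one: among genes called in every library of a target, the highest peaks did not all overlap at 3 of 79 for H3K4me3, 4 of 79 for H3K27ac, 33 of 79 for H3K4me1, 8 of 79 for MLL1 and 18 of 36 for p53. The lists differed in length, from 257 autosomal peaks for MLL4 in KO to 196645 for H3K27ac in WT, and the read depth behind them is unknown. Other protein-coding genes ended inside the window of 33 of the 81 genes, so some peaks could belong to a neighbour. With 2 libraries against 2 an exact permutation test cannot give a p below 0.33, so genotypes are compared by whether the 2 WT and 2 KO folds overlap, with the same count over all genes beside it. Colon and epithelial identity was read from H3K4me3 in both WT libraries, which 7 of 10 epithelial markers carried and KRT20, CDX1 and VIL1 did not. By the same reading 1 of 5 blood, 0 of 4 muscle and 1 of 4 liver and nerve markers were positive. H3K27ac peaks in both WT libraries, whose lists are far longer, were at 9 of 10 epithelial, 5 of 5 blood, 3 of 4 muscle and 2 of 4 liver and nerve markers, so this mark did not separate the lists.

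H3K4me3 covered the ribosomal protein genes in both genotypes. It was called in all 4 libraries at 79 of the 81 genes, with 66.8% of all coding genes called in every WT library and 67.5% in every KO library. None was lost, that is called in both WT libraries but neither KO library (0.413% of all genes). None was gained, the reverse (0.324%). The 2 genes without a peak were the paralogs RPL10L and RPL39L, copies of RPL10 and RPL39 whose expression is best known in testis. All 73 genes of the core ribosome were marked.

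The median H3K4me3 fold over the genes was 143 and 181 in the WT libraries, beside 151 and 143 in the KO libraries. The 12622 coding genes with H3K4me3 in all 4 libraries had medians of 120 and 142 in WT, and of 110 and 133 in KO. Ribosomal protein genes lay above the median marked gene in every library, but the order of the 4 libraries was not the order of the genotypes. Within WT, the highest mean folds were those of RPL13, RPL38, RPS19, RPL7A and RPL22. RPL13, a large subunit protein, had folds of 271 and 324 in WT and 141 and 263 in KO. RPL38, a small protein of the large subunit, had 227 and 297 in WT against 290 and 312 in KO. The lowest in WT were RPS12, RPL35A and RPL41, the last encoding the shortest ribosomal protein.

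**Figure D1:**
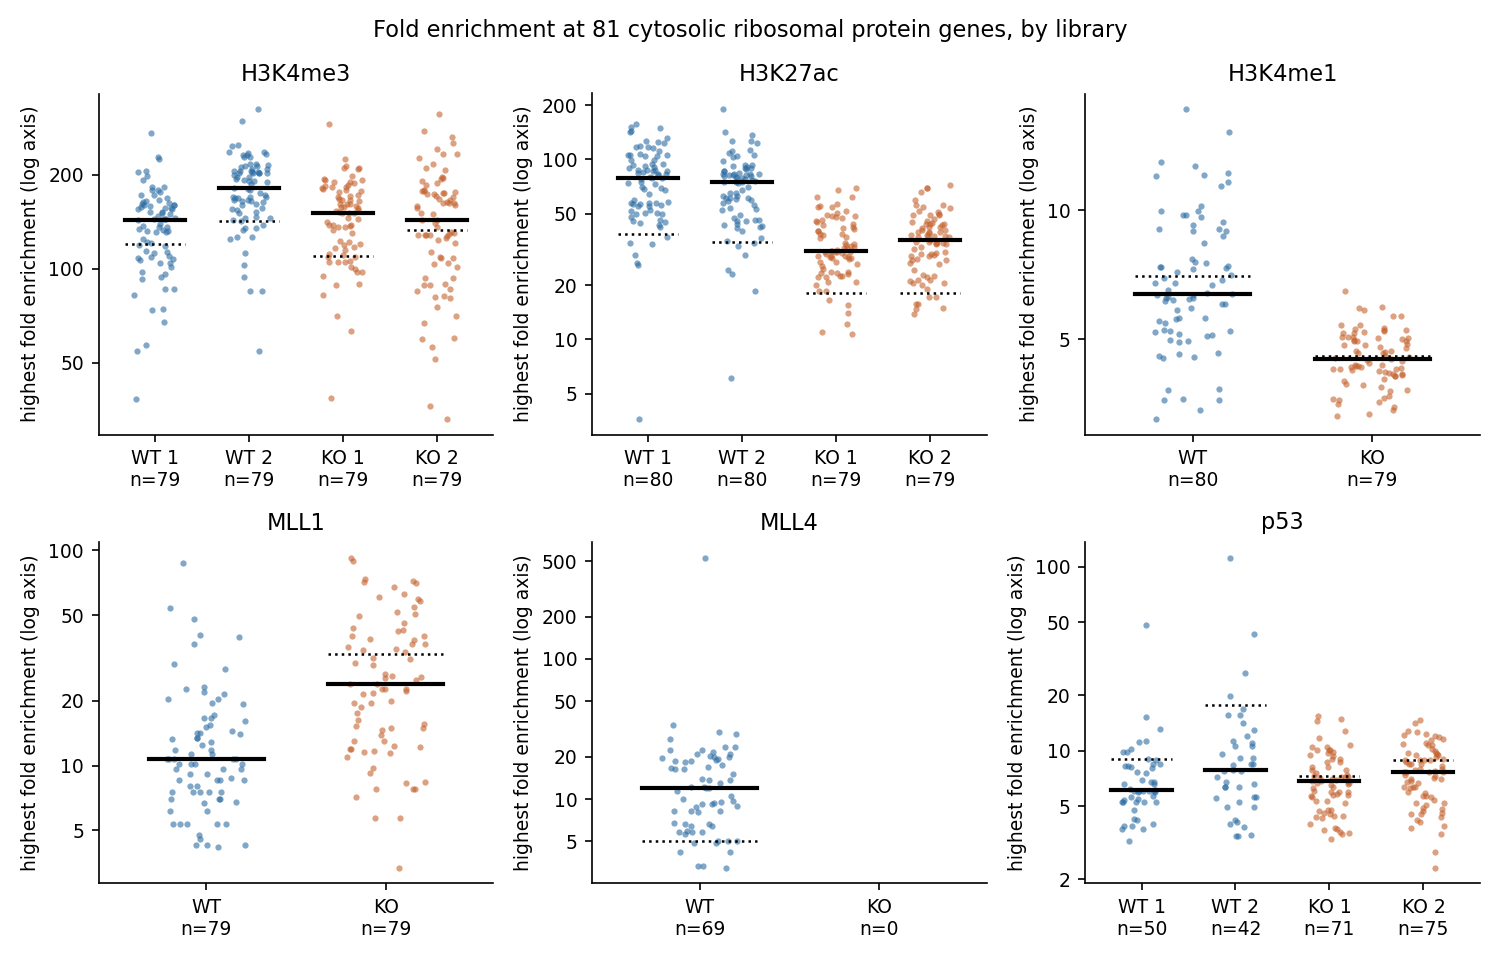
Fold enrichment over input (log axis) of the highest peak at each ribosomal protein gene, 1 point per gene and library, by target. Solid black lines are medians of the ribosomal protein genes and dotted lines medians of the coding genes with H3K4me3 in all 4 libraries; H3K27ac sits at 78.7 and 74.9 in WT and at 30.8 and 35.7 in KO, and MLL4 has no points in KO.

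H3K4me3 folds were lower in both KO than in both WT libraries at 20 of the 79 marked genes (21.3% of all genes) and higher at 6 (11.7%). The median log2 difference, KO minus WT, was -0.10, against -0.05 over all genes. Leaving out a library loosens this rule, so the number of lower genes can only stay or rise. It was 57 without WT replicate 1 and 36 without KO replicate 1, with no share over all genes available beside these. The median depended on single libraries, as it was 0.07 without WT replicate 2.

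RPS12, a small subunit protein, had the largest H3K4me3 difference of the 79 genes. Its H3K4me3 folds of 38.3 and 54.6 in WT compare with 182 and 170 in KO, a ratio of 3.85 in favour of KO. Both KO values lay far above both WT values. The peak covered nearly the same ground in each library, for example chr6:132812654-132816892 in WT replicate 1 and chr6:132812511-132816887 in KO replicate 1, over the start and most of the gene body. Its -log10 q also differed, at 371 and 667 in WT and 948 and 1007 in KO. H3K27ac at RPS12 was lower in KO, with folds of 56.5 and 60.9 in WT against 34.3 and 29.8 in KO. The other genes higher in both KO libraries were RPL15, RPS6, RPL19, RPL36 and RPS21. RPS6, the small subunit protein phosphorylated downstream of mTOR, had 107 and 133 in WT and 161 and 165 in KO. At the other end RPL27 had 96.5 and 160 in WT and 106 and 33.0 in KO, a log2 difference of -1.07. Its genotypes overlapped, and the low value was in KO replicate 2 alone.

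H3K27ac was called in all 4 libraries at 79 genes (84.9% of all genes in every WT and 72.6% in every KO library), and its folds were lower in KO. None was lost (7.79% of all genes, 0.705% of those marked by H3K4me3) and none gained (0.0261%). Folds were lower in both KO than in both WT libraries at 77 of the 79, where 88.7% of all genes and 89.3% of H3K4me3-marked genes were, and higher at none (0.772%). The median fold over the genes was 78.7 and 74.9 in WT, beside 30.8 and 35.7 in KO, and the median log2 difference was -1.06, against -0.95 over all genes. Lower folds in KO were thus shared with most genes. After dividing each library by its median gene, 27 were lower and 20 higher, where 20.6% and 33.1% of all genes were, and the median difference was -0.03.

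Ribosomal protein genes ranked high for H3K27ac in both genotypes. Their median percentile among 12337 coding genes marked by both modifications was 87.9 and 88.3 in WT against 80.4 and 86.1 in KO. The 30 small subunit genes were all lower in KO, with a median log2 difference of -1.06. Of the 40 large subunit genes, 39 were lower, with a median of -1.02. The 3 stalk genes, whose proteins recruit translation factors to the ribosome, were all lower, with a median of -1.31.

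The highest mean H3K27ac fold in WT belonged to RPS19, a small subunit protein whose mutation causes Diamond-Blackfan anaemia. In WT replicate 1 alone RPL13, at 157, and RPL7A, at 151, lay above it. RPS19 had 149 and 190 in WT and 38.5 and 34.5 in KO, which was 4.63 times lower. That was also the largest difference among the 79 genes, followed by RPL30, RPL37A and RPSA. RPSA, the small subunit protein also known as the laminin receptor, had 86.7 and 80.5 in WT and 23.8 and 20.1 in KO. RPL37A had 55.7 and 52.9 in WT against 10.7 and 15.7 in KO. The genotypes overlapped at RPL36, with 46.1 and 35.1 in WT against 32.6 and 43.5 in KO. They also overlapped at the muscle paralog RPL3L, with 29.6 and 18.6 in WT and 22.3 and 14.7 in KO. These RPL3L peaks overlap the H3K4me3 peak, described below, that reaches the neighbouring MSRB1 start.

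**Figure D2:**
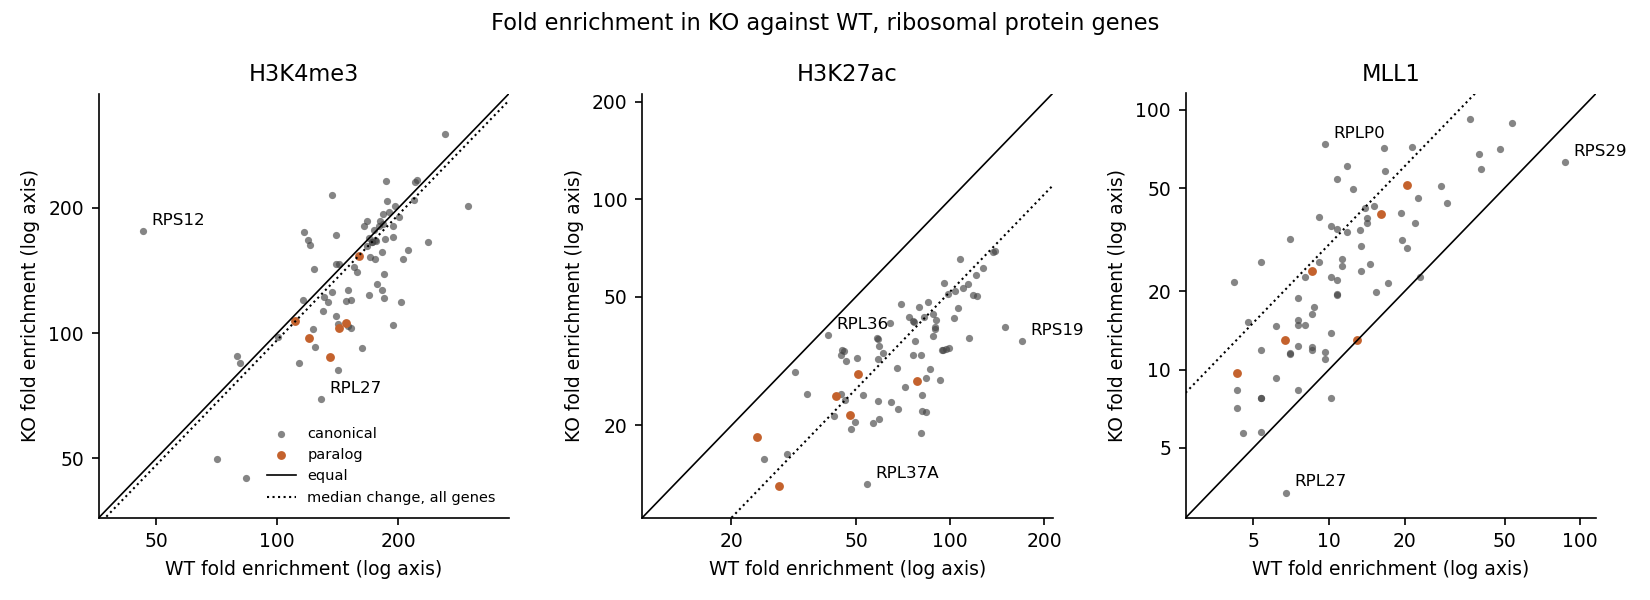
Mean fold enrichment in KO against WT (both log axes) for H3K4me3, H3K27ac and MLL1, 1 point per ribosomal protein gene with a peak in every library, paralogs in orange. The solid line is equality and the dotted line the median difference over all genes; RPS12 lies above both lines for H3K4me3, all genes lie below equality for H3K27ac, and most lie below the dotted line for MLL1.

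H3K4me1 folds were lower in KO, as over all genes. It was called in WT at 80 genes (86.2% of all genes) and in KO at 79 (74.3%). The paralog RPL39L, at 5.19 in WT, was the 1 gene lost (13% of all genes), and none was gained (1.19%). With only peaks of -log10 q of at least 5, 52 of 81 were lost (55.5% of all genes), and within 1 kb of the start 10 of 64 were (16.8%). The median fold was 6.38 in WT and 4.49 in KO, beside 7.03 and 4.56 at H3K4me3-marked genes, in 1 library each and so with no replicate check. The median log2 difference was -0.49, against -0.61 over all genes, and relative to the median gene 52 of 79 were higher in KO (51.7% of all genes). Folds at least 2 times lower in KO were found at 15 of 79 genes, where 22.8% of all genes and 21.8% of H3K4me3-marked genes were. RPL3, which shapes the peptidyl transferase centre, had 17.2 in WT, the highest of all 81 genes, and 4.69 in KO. RPL13 followed with 15.2 in WT and 4.83 in KO. RPS2, of the small subunit, had 12.2 in WT and 4.26 in KO. RPS6, the lowest in WT, had 3.25 in WT and 3.35 in KO. The WT and KO peaks overlapped at RPL3 and RPL13 and did not at RPS2 and RPS6.

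MLL4 was abundant at the ribosomal protein genes in WT, and no peak was called at any of them in KO. In WT 69 of the 81 genes had an MLL4 peak (68.7% of all genes). All 69 were lost in KO (68.7% of all genes, 81.2% of H3K4me3-marked genes), where 0.0418% of all genes had a peak, and none was gained (0.0157%). Presence was thus near that of other marked genes. The fold enrichment was higher, with a median of 11.9 at the ribosomal protein genes and 5.00 at H3K4me3-marked genes with a peak. The median percentile among 10257 such genes was 97.0, and 49 of the 69 lay in the highest 10% of them. There was 1 MLL4 library per genotype, so these folds have no replicate.

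By subunit, 35 of 40 large subunit genes had an MLL4 peak with a median fold of 10.5, and 25 of 30 small subunit genes had one with a median of 13.7. All 3 stalk genes had one, at 9.5 for RPLP0, 16.3 for RPLP1 and 20.8 for RPLP2. The paralogs lay lower, with 6 of 8 called and a median of 5.87. Core genes without a peak included RPL6, RPL21, RPL23A, RPL24, RPS7, RPS18, RPS25, RPS27 and RPS28. The start of RPS27, at chr1:153990702-153990771 (+), carries a pyrimidine run of its own:
RPS27: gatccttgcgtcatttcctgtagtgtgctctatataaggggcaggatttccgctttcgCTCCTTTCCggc
Its H3K4me3 folds were 108 and 138 in WT, so the promoter was marked while MLL4 was not called.

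The strongest MLL4 folds were those of RPS29 at 530, RPL8 at 33.9, RPL3 at 30.3, RPL29 at 29.1 and RPS6 at 26.6. The RPS29 value came from a peak of 295 bp at chr14:49586583-49586877, inside the annotated RPS29 locus. That peak coincides with RN7SL1 at chr14:49586580-49586878, a gene for the RNA of the signal recognition particle, which has many near copies in the genome. The sources used here do not say whether reads there were placed uniquely. The weakest called genes were RPS10 at 3.24, RPL9 at 3.34 and RPL26 at 3.34. The deposited KO list held 257 autosomal peaks, so the 257 strongest WT peaks were taken as a list of equal length. They reached 158 coding genes (0.826% of all) and 19 ribosomal protein genes (23.5% of them, and 12% of the genes reached). Of the 48 genes whose window holds no other coding gene end, 10 were among them.

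The highest MLL4 summit mostly lay inside the gene body. Among the 55 genes with an MLL4 peak and a listed start, the highest summit was a median of 2076 bp into the gene (quartiles 1060 and 3810). It was more than 1 kb downstream at 42 of them (76.4%), against 50.4% of the other short genes, whose median was 1022 bp. Those other short genes were the coding genes of 1.5 to 10 kb with H3K4me3 in all 4 libraries. The ribosomal protein genes were held to no such limit and reach 27723 bp, so the groups are not matched in length. At RPL22 and RPS29 the highest MLL4 summit lay 13592 and 11977 bp after the start, at RPS29 in the peak on RN7SL1. Over the 63 genes with a listed start and a peak, the highest H3K4me3 summit was a median of 233 and 251 bp from the start in WT, and that of H3K27ac 208 and 193 bp. MLL1 summits were also near the start, at 325 bp in WT and 222 bp in KO. Within 1 kb of the start an MLL4 peak was called at 34 of 63 genes (54.0%), against 46.6% of H3K4me3-marked genes.

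**Figure D3:**
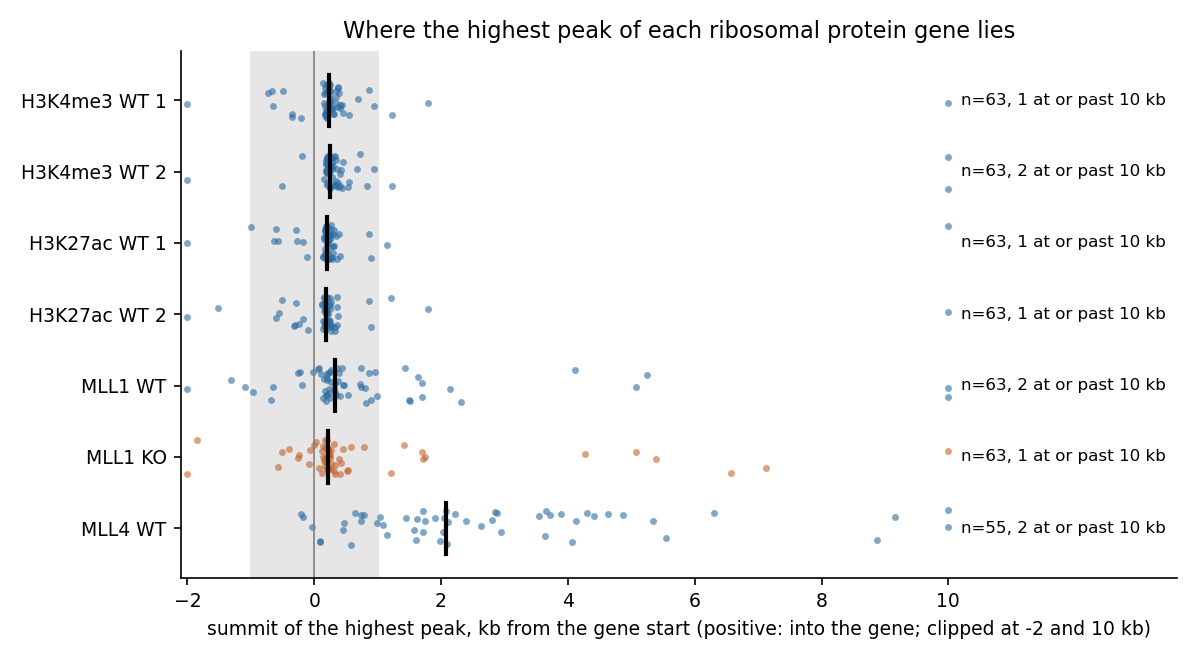
Distance from the transcription start to the summit of the highest peak (kb, positive into the gene, clipped at -2 and 10 kb), 1 point per ribosomal protein gene and target; the grey band is within 1 kb of the start. H3K4me3, H3K27ac and MLL1 summits gather near the start, while MLL4 summits have a median of 2076 bp and 42 of 55 lie beyond 1 kb.

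The MLL4 peaks also covered more of the gene body. Beyond 1 kb of the start, 47 of 60 genes with enough length had an MLL4 peak (78.3%), against 49.6% of 1869 other short genes. These 60 genes had no upper limit of length, while the other short genes stop at 10 kb, so the groups are not matched in length. Peaks covered a mean of 26.6% of that downstream part, against 8.21%, with medians of 15.9% and 0%. The genes most covered were RPL10A at 99.8%, RPL19 at 99.6% and RPS12 at 99.3%. A peak at RPL3 spanned 4480 bp, chr22:39314106-39318585, from about 1 kb after the start through most of the gene. At RPS6 a peak of 3359 bp spanned chr9:19376262-19379620. Genes that host small nucleolar RNA genes and those that do not had like cover, at means of 28.8% and 25.7%. MLL1 in WT showed similar cover, with a mean of 20.7% against 9.29% for other short genes. In KO, MLL1 cover was 18.6% against 16.2%. H3K4me3 cover in WT replicate 1 was 36.9% against 20.9%, and p53 covered less than at other short genes, at 3.70 to 5.96% against 6.81 to 13.4% over its 4 libraries.

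**Figure D4:**
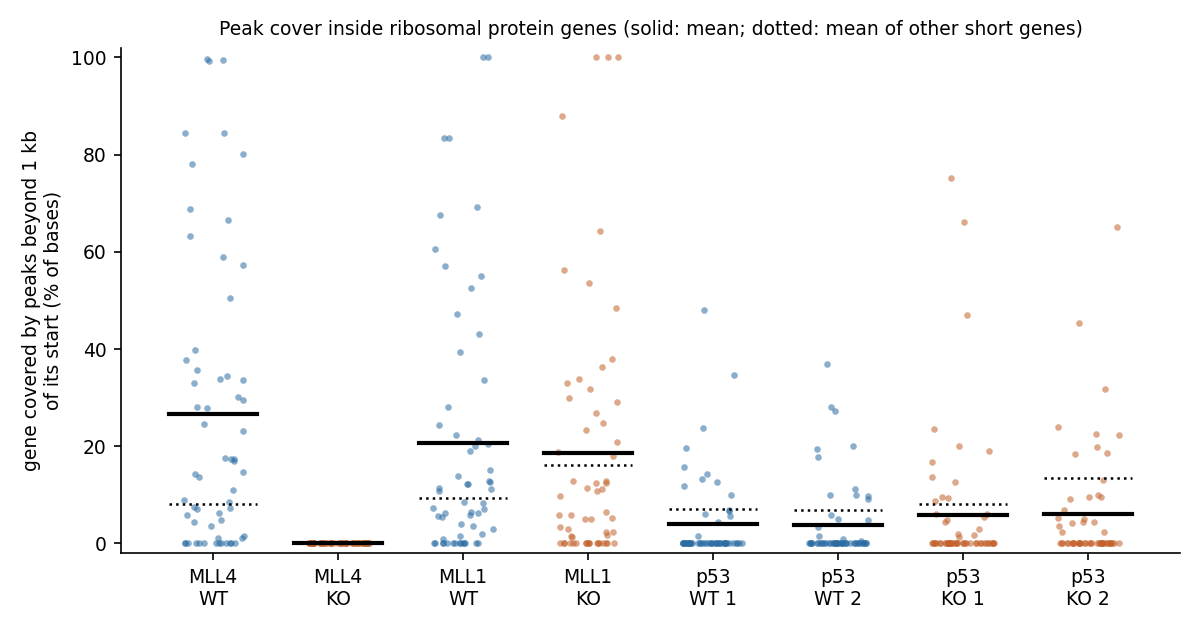
Percent of bases beyond 1 kb of the start that lie under a peak, 1 point per ribosomal protein gene, by library. The solid line is the mean of the ribosomal protein genes, with no upper limit of length, and the dotted line that of other short genes (1.5 to 10 kb). For MLL4 in WT these means are 26.6% and 8.21%, and MLL4 in KO is at 0.

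MLL1 was called at 79 genes in both genotypes (70% of all genes in WT and 71.3% in KO), with none lost (4.53%) and none gained (5.91%). Folds were higher in KO at 75 of the 79 (94.9%), where 96.5% of all genes were. The median fold was 10.7 in WT and 24.0 in KO, while H3K4me3-marked genes went from 10.7 to 33.0. Folds at least 2 times higher in KO were found at 39 of 79 genes, where 78% of all genes and 80.8% of H3K4me3-marked genes were. The median log2 difference was 0.99, against 1.60 over all genes, so the ribosomal protein genes differed less between genotypes than the median gene. Their median percentile among marked genes was 48.6 in WT and 34.8 in KO. Relative to the median gene, 65 of the 79 were lower in KO, where 54.4% of all genes were.

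Within the set the MLL1 differences were unequal. The stalk gene RPLP0 had 9.67 in WT and 73.8 in KO, the largest ratio at 7.63. These were different peaks, since the highest lay 339 bp after the start in WT and 6573 bp after it, beyond the end of the gene, in KO. RPLP1 had 16.6 in WT and 71.4 in KO. RPS19 had 14 in WT and 42.0 in KO. The highest WT values at RPS29 (87.0), RPL7 (53.7), RPS18 (47.8), RPL13 (40.3) and RPL36 (39.6) lay in part in shared windows, as the windows of RPS29, RPL7, RPS18 and RPL36 hold another gene's end. At RPS29 the highest MLL1 peak lay on RN7SL1 in WT and at the RPS29 start in KO, at 62.8. RPL27 was the 1 gene at least 2 times lower in KO (0.112% of all genes), with 6.76 in WT and 3.36 in KO. The KO values of H3K4me3 at RPL27 were those given above, low in replicate 2 only.

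p53 peaks were called at fewer ribosomal protein genes in WT than in KO. They were called in both WT libraries at 36 of the 81 genes (61.2% of all genes, 71.7% of H3K4me3-marked genes) and in both KO libraries at 69 (65.2% and 85.1%). None was lost (0.884%) and 13 were gained (16.0% of the genes), where 6.21% of all genes and 8.83% of H3K4me3-marked genes were gained. By library, 50 and 42 genes had a peak in WT (66.0 and 65.5% of all genes) against 71 and 75 in KO (66.3 and 80.6%). The WT lists held 36046 and 31953 autosomal peaks and the KO lists 24766 and 61530, so the longest and the shortest list were both from KO. With every list cut to equal length, 24 genes were gained (7.8% of all genes).

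**Figure D5:**
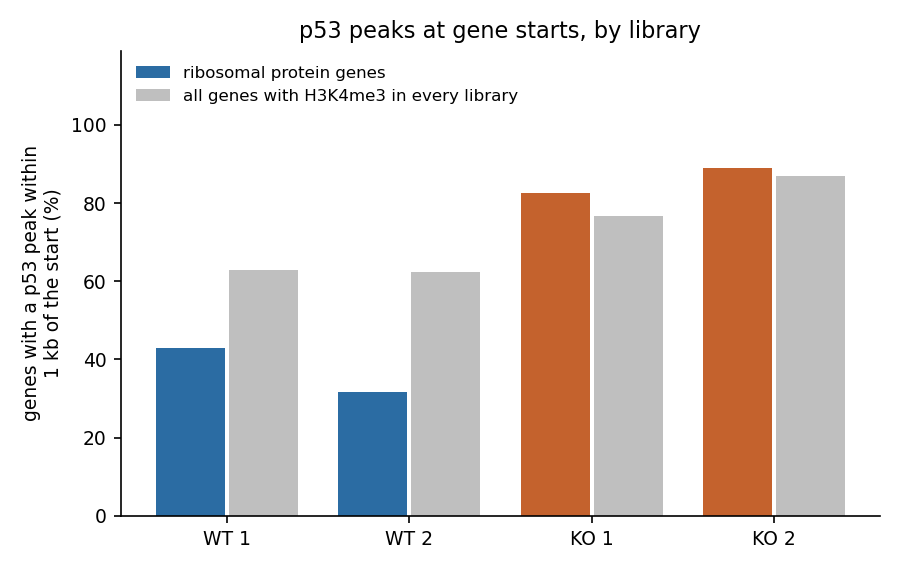
Percent of genes with a p53 peak within 1 kb of the start, by library, for ribosomal protein genes (n = 63) and all coding genes with H3K4me3 in all 4 libraries. Ribosomal protein genes stand at 42.9 and 31.7% in WT, below 62.9 and 62.4% of marked genes, and at 82.5 and 88.9% in KO, beside 76.7 and 86.9%.

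At the start itself the order was the same. Within 1 kb of the start, p53 was called in WT at 27 and 20 of 63 genes (42.9 and 31.7%), against 62.9 and 62.4% of H3K4me3-marked genes. In KO it was called at 52 and 56 (82.5 and 88.9%), against 76.7 and 86.9%. In this start window 21 of 64 genes were gained (8.67% of all genes). Over the gene body plus 1 kb, the number gained was 27 without WT replicate 1, a looser rule that cannot give fewer than 13. Among the 48 genes with no other gene end in that wider window it was 8. No share over all genes was available beside the 27 and the 8. The 13 gained genes were RPL9, RPL12, RPL13A, RPL17, RPL23A, RPL38, RPL26L1, RPS3A, RPS9, RPS10, RPS12, RPS13 and RPS16. RPL17 had the highest folds, 14.5 and 10.7 in KO, in peaks 5247 and 5270 bp after its start and beyond the end of the gene. RPL38 had 6.83 at its start in KO replicate 1 and 6.33 in KO replicate 2, the latter from another peak 7853 bp after the start. RPS12 had 3.53 and 5.43 in KO. No p53 peak was called in any library at RPS27, RPL35A, RPL34 and RPL23.

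Where p53 was called in all 4 libraries, 36 genes, folds did not move together. They were lower in both KO libraries at 10 genes, where 51.2% of all genes and 44.3% of marked genes were, and higher at 9 (4.75% and 5.58%). The median log2 difference was 0.05, against -0.70 over all genes. Relative to the median gene 21 were higher and 3 lower, where 29.8% and 28.1% of all genes were. The median fold of the 36 genes was 8.13 in WT and 7.58 in KO, against 14 and 8.29 at H3K4me3-marked genes. Over every gene with a peak in a library (50, 42, 71 and 75 genes), folds had medians of 6.10 and 7.82 in WT and 6.83 and 7.62 in KO, against 9.06 and 17.6 in WT and 7.26 and 8.89 in KO at H3K4me3-marked genes.

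RPS19 had the highest p53 folds in WT. Its p53 folds were 48.3 and 112 in WT against 10.4 and 9.69 in KO, which was 7.31 times lower. Both WT values lay above those of every other ribosomal protein gene, while both KO values lay within the range of the other genes. The summit lay 117 and 164 bp after the start in WT and 80 and 115 bp in KO, in peaks such as chr19:41860151-41860688 in WT replicate 1, next to the start sequence printed above. RPL7 came next with 13.1 and 43.0 in WT and 7.20 and 8.89 in KO, in a window shared with another coding gene. RPL13 had 15.3 and 26.3 in WT and 10.1 and 14.1 in KO.

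Several ribosomal proteins act on the p53 pathway, and their genes did not share a pattern. RPL5, which binds MDM2, had p53 folds of 5.94 and 5.51 in WT and 7.90 and 8.25 in KO. Its partner RPL11 had 5.43 and 3.42 in WT and 5.62 and 3.53 in KO, and these overlapped. At both genes the highest peaks lay inside the gene in WT and at the start in KO. RPL26, which binds the p53 mRNA, had 8.31 and 9.16 in WT and 15.4 and 11.4 in KO, of which 15.4 was the highest of any ribosomal protein gene in that library. RPL23, also an MDM2 binder, had no p53 peak. RPS14, a small subunit protein lost in the 5q- syndrome, had 5.63 and 3.87 in WT and 4.41 and 3.82 in KO, from peaks inside the gene in WT and near the start in KO. RPS27A, a fusion of ubiquitin and a small subunit protein, had a peak only in KO replicate 2, at 5.23.

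The 8 paralogs differed from the core genes in being unevenly marked. RPS27L, a known p53 target, had p53 folds of 8.96 in WT replicate 1 and 9.36 and 8.68 in KO, with no peak in WT replicate 2. The summits were 234 bp before the start in WT and 235 and 209 bp before it in KO. RPL39L had p53 folds of 11.1 and 15.5 in WT and 7.32 and 7.32 in KO although neither H3K4me3 nor MLL1 was called there. Its H3K27ac was called in WT replicate 2 alone, at 6.12. RPL10L had H3K27ac in WT replicate 1 alone, at 3.61, and p53 in KO replicate 2 alone at 3.9. RPL36AL had p53 folds of 11.3 and 19.7 in WT and 7.56 and 12.8 in KO. RPL7L1, RPL22L1, RPL26L1, RPL36AL and RPS27L carried H3K4me3, as did RPL3L, and the median log2 difference over these 6 was -0.41. The RPL7L1 value is not from its start, as the highest summit lay 11036 bp after it in WT replicate 1 and 11039 bp in KO replicate 1. The H3K4me3 at RPL3L, a muscle gene, came from a peak that reaches the neighbouring MSRB1 start.

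Other genes of protein synthesis were read in the same way. H3K4me3 was in all 4 libraries at 77 of 77 mitochondrial ribosomal protein genes, 20 of 20 TOP translation factor genes and 29 of 29 ribosome assembly genes. Their H3K27ac folds were lower in both KO libraries at 71, 19 and 25 genes, with median log2 differences of -0.86, -1.04 and -0.86. MLL4 was called in WT at 50, 19 and 23 of them, with median folds of 4.50, 10.8 and 5.00. Among the 257 strongest MLL4 peaks, the mitochondrial and the assembly lists had no gene, and the translation factors had RACK1, EEF1A1 and EEF2, at 24.4, 24.3 and 25.7. EEF1A1 and EEF2 are the elongation factors, and RACK1 is a component of the small subunit. MLL1 folds were at least 2 times higher in KO at 49, 15 and 18 of the genes. p53 was gained at 20 of the 77 mitochondrial ribosomal protein genes (26.0%), 1 translation factor gene (5.0%) and 7 assembly genes (24.1%), beside 13 of the 81 cytosolic ones (16.0%).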

How the data were processed

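Chromatin immunoprecipitation libraries of HCT116 were deposited as MACS2 2.1.1 narrow and broad peak lists on hg38, per the submitters' processing notes, and each list was called alone against the input of its genotype, per the peak names. The sources used here give neither the aligner nor the read filters. Each peak carries the authors' fold enrichment over input (a ratio), -log10 p and q values, a score that was not used, and, in narrow lists, a summit offset, per the file headers and format. Gene bodies and starts came from RefSeq on GRCh38.p14, and autosomal protein-coding genes were used. With Python 3.11.15, pandas 2.3.3 and numpy 2.4.6, a gene was called where a peak overlapped its body plus 1 kb by at least 1 bp, and its fold is the highest peak's. Single-library targets were called at a 2-fold difference. The code was tested on simulated data. The members and lists were chosen with earlier results of these data known. Genes of the largest difference were chosen after their values were seen, and so was the group of other short genes; the rest follow a rule of role and of highest or lowest WT fold. The alternatives were a stricter q, equal list lengths, a window at the start, a larger overlap, no paralogs, leaving out a library, and scaling by the median gene.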

Additional observations from a re-analysis of the deposited data

How the results depend on the processing

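No paired analysis was possible because the results come from no test. Within replicate numbers 1 and 2 the median log2 differences were 0.13 and -0.35 for H3K4me3, -1.13 and -1.01 for H3K27ac and 0.10 and -0.17 for p53. Of the alternatives, 91 left a count or median within 1.5 times or the spread between replicates, 29 moved it and 2 reversed its sign. With peaks of -log10 q of at least 5, H3K4me1 was lost at 52 genes (55.5% of all genes), MLL1 lost at 1 (0.633%) and gained at 9 (10.4%), and p53 lost at 2 (3.63%). At that threshold MLL1 was at least 2 times lower at 0 of the 69 genes called in both genotypes (0.0385% of all such genes). H3K4me1 was at least 2 times lower at 3 of the 21 so called (15.7%). Within 1 kb of the start, of 64 genes, H3K4me1 was lost at 10 (16.8% of all genes), MLL4 at 34 (36.4%), MLL1 lost at 1 (1.54%) and gained at 1 (5.81%), and p53 gained at 21 (8.67%). With at least 50% of the peak in the window, H3K27ac was gained at 2 (0.737% of all genes) and MLL1 lost at 1 (4.72%). H3K4me1 was then at least 2 times lower at 5 of the 64 genes called in both genotypes (19.8%). Without the paralogs H3K4me1 was lost at 0. With lists of equal length MLL4 was lost at 19 (0.826% of all genes) and p53 gained at 24 (7.8%). Relative to the median gene, H3K27ac was lower at 27 (20.6% of all genes, median -0.027) and the H3K4me3 median reversed to 0.007. On that scale MLL1 was at least 2 times lower at 22 and H3K4me1 at 2. No share over all genes was available beside the 22 and the 2, so they cannot be set against other genes. Leaving out 1 library in turn gave 0 to 1 genes for H3K27ac lost (1 without either WT library), 15 to 27 for p53 gained and 21 to 57 for H3K4me3 lower. These counts can only stay or rise, since each rule asks all libraries to agree, and no share over all genes was available beside them. The H3K4me3 median ran from -0.335 to 0.068, reversed without WT replicate 2. Alternatives chosen after seeing the data gave 8 (no other gene end in the window) and 21 (equal length within a replicate number) for p53 gained, and 31 for MLL4 beyond 1 kb of the start with no other gene end. These counts also lack a share over all genes, so they cannot be set against other genes. The causes were not tested. Read depth is unknown, so a missing peak may lie under the detection limit.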
